A study of Mus musculus with 4 samples.

Results

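The genes described here are 38 genes of the postsynaptic density and of calcium/calmodulin-dependent kinase signaling, chosen by name as a list of known scaffolds, kinases, adhesion molecules and receptor partners, out of 22609 gene symbols counted in hippocampus RNA. All 38 were found in the count tables and all 38 passed the filter on low counts, with at least 963 reads per gene in each library. The data comprise 4 RNA-Seq libraries, with 2 for each genotype (FLOX+GCI, FBN-ARO-KO+GCI). In FBN-ARO-KO mice, Cre under the promoter of Camk2a deletes Cyp19a1, the gene for aromatase (the enzyme that makes estradiol), in forebrain excitatory neurons, and FLOX mice are the controls. All mice were females of 3 to 5 months, ovariectomized 1 week before global cerebral ischemia (GCI), which was 20 min of bilateral carotid occlusion, and were sampled after 24 h of reperfusion. No sham library was analysed here, so nothing below compares ischemic with uninjured tissue. Whether the 2 libraries of each genotype were made from different mice is not given in the sources used here, so the p-values measure the spread between these libraries, which may be technical.

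The postsynaptic density is a protein lattice under the membrane of excitatory synapses. MAGUK proteins such as PSD-95 bind glutamate receptors and adhesion molecules, DLGAP proteins link them to SHANK proteins, and SHANK proteins reach the actin cytoskeleton of the dendritic spine. Calcium entering through NMDA receptors binds calmodulin, which activates CaMKII and the phosphatase calcineurin, and these act in opposite ways on synaptic strength. In hippocampal pyramidal cells this machinery is abundant, and CA1 pyramidal cells are known for their vulnerability to global ischemia.

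Reads on genes totaled between 24333396 and 33076795 per library. The targeted gene, Cyp19a1, was barely sequenced (4 and 1 reads in FLOX+GCI, 2 and 2 reads in FBN-ARO-KO+GCI), so it does not check the labels. The libraries held neuronal RNA: the summed level of 8 pan-neuronal markers (among them Snap25, Syt1 and Map2) was 7492 to 7855 CPM (reads relative to the TMM-scaled size of the library) in FLOX+GCI and 7853 to 8761 CPM in FBN-ARO-KO+GCI. That of 6 excitatory neuron markers (among them Slc17a7 and Neurod6) was 2274 to 2409 CPM and 2202 to 2210 CPM. Other cell types were present in all libraries, with 6 astrocyte markers at 4732 to 4986 CPM and 4934 to 5658 CPM, 6 oligodendrocyte markers at 3747 to 4225 CPM and 4248 to 4389 CPM, 6 interneuron markers at 939.4 to 998.1 CPM and 907.9 to 914.7 CPM, and 6 microglia markers at 291.7 to 297 CPM and 280.8 to 310.1 CPM, FLOX+GCI first. In 5 endothelial markers the sums were 165.6 to 220.2 CPM and 142.9 to 194.5 CPM, and in 5 choroid plexus markers 49.7 to 64.1 CPM and 42.8 to 48.0 CPM. No marker of these lists was at 0 in all libraries, and none of those tested passed an adjusted p of 0.05. The sums of the excitatory neuron, interneuron and choroid plexus markers were lower, and that of the oligodendrocyte markers higher, in both FBN-ARO-KO+GCI libraries than in both FLOX+GCI libraries, and their part in the values below was not tested. The excitatory neuron markers did not move as one, as their median log2 fold change was 0.048, with Slc17a7 at -0.14 and Neurod6 at 0.15. In bulk tissue, fewer cells of a type and less RNA per cell cannot be told apart.

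The postsynaptic genes were present at nearly the same total level in both genotypes. Together they made up 1.98% and 1.96% of all reads on genes in the FLOX+GCI libraries, and 1.99% and 1.94% in the FBN-ARO-KO+GCI libraries. Per kilobase of annotated exon, the FLOX+GCI means ran from 2.96 CPM per kb for Camk2d to 830 CPM per kb for Nrgn. After Nrgn, which encodes the calmodulin-binding protein neurogranin, came Camk2a, with 670 ± 16.1 CPM per kb (SD, n = 2), and then Cnih2, Ppp3r1, Ppp3ca, Ppp1r9b, Dlg4 and Camk2b, all above 180 CPM per kb in FLOX+GCI. The levels of Cnih2 and Ppp3r1, with 358.3 and 358.2 CPM per kb in FLOX+GCI, did not differ beyond their spread. The annotation gives Cacng8 only 0.663 kb of exon, so its level per length may be overstated. Camk2d has 16.07 kb of annotated exon but 4388 bases in its longest coding transcript, so its level per length may be understated.

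**Figure D1:**
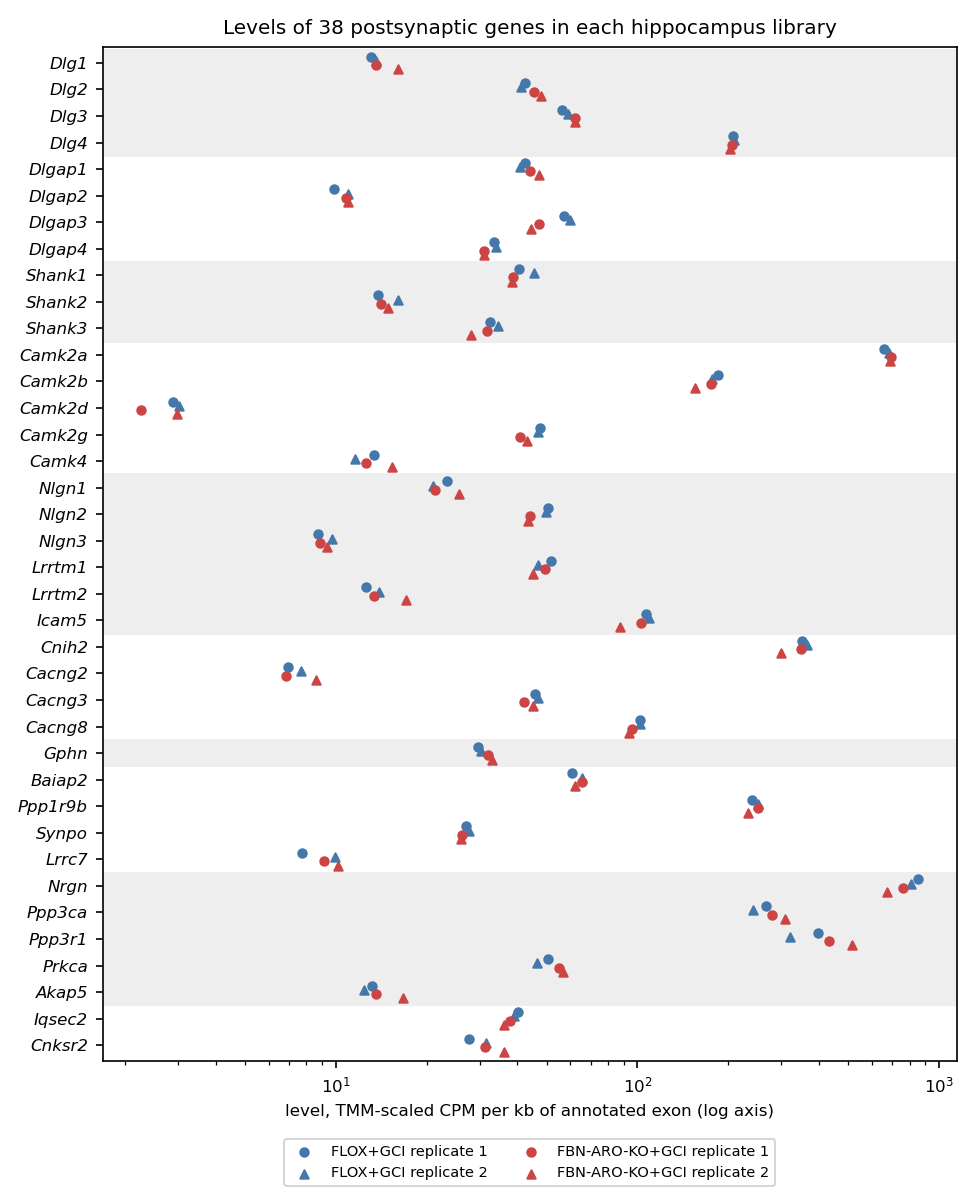
Level of each of the 38 genes in each library, as TMM-scaled CPM per kb of annotated exon on a log axis, with genes grouped by role in shaded and white bands (blue, FLOX+GCI; red, FBN-ARO-KO+GCI; circles, replicate 1; triangles, replicate 2). For most genes the 4 points lie close together, while genes differ from 2.96 (Camk2d) to 830 (Nrgn) CPM per kb in FLOX+GCI.

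Between genotypes, the quasi-likelihood test of edgeR with Benjamini-Hochberg adjustment over the 14527 genes tested gave 0 of the 38 genes an adjusted p under 0.05, against 0.0138% of all genes. The smallest adjusted p of a member was 0.238. At an unadjusted p under 0.05 there were 8 members (21.1%), against 16.5% of all genes tested. Of these, 4 were higher in FBN-ARO-KO+GCI (Ppp3r1, Ppp3ca, Prkca and Dlg2), against 8.72% of all genes, and 4 were lower (Dlgap3, Nrgn, Nlgn2 and Camk2g), against 7.82%. When libraries were scaled by their totals alone, there were 2 members higher (6.63% of all genes) and 6 lower (10.1% of all genes), and the median log2 fold change of all genes tested was then -0.043. With DESeq2, 2 members (Dlgap3 and Ppp3r1) had an adjusted p under 0.05, as did 285 (4.92%) of the 5796 genes to which it gave one. The median log2 fold change of the 38 genes was -0.02, and that of all genes tested was -0.01. For 24 members (63.2%), all values of FBN-ARO-KO+GCI lay on one side of those of FLOX+GCI, which held for 51.8% of all genes tested, with 9 members higher (25.9% of all genes) and 15 lower (25.8% of all genes). The differences were small, and the 95% interval of the fold change lay within 1.5-fold in either direction for 37 of the 38 genes, against 65% of all genes tested. The exception was Ppp3r1, whose interval reached 1.60-fold. The width of an interval depends on read depth, and every member had at least 963 reads in each library. The largest standard error was 0.13 among the members and 1.35 among all genes tested.

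The count of 8 rested partly on FBN-ARO-KO+GCI replicate 2. Without it, 3 members had an unadjusted p under 0.05, 0 of them higher and 3 lower (Dlgap3, Camk2d and Camk2g), against 5.64% of all genes in that fit. Without FBN-ARO-KO+GCI replicate 1 there were 14, with 7 higher and 7 lower, against 18.8% of all genes. Without FLOX+GCI replicate 2 there were 5, with 3 higher and 2 lower, against 12.9% of all genes, and without FLOX+GCI replicate 1 there were 7, with 5 higher and 2 lower, against 15.9%. Of the 8 genes, only Dlgap3 had an unadjusted p under 0.05 in all 4 of these fits, and Ppp3r1 had one in 3, losing it without FBN-ARO-KO+GCI replicate 2.

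**Figure D2:**
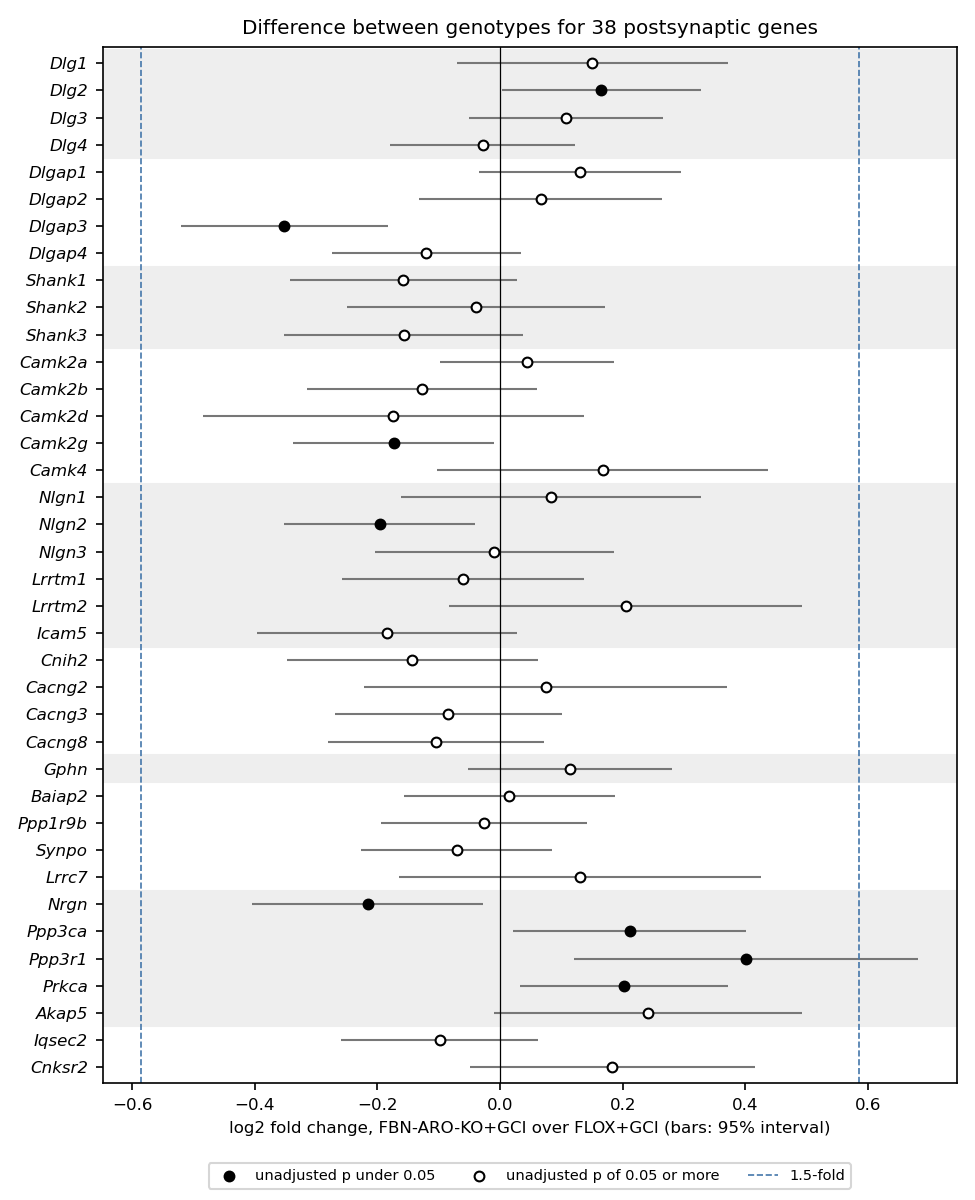
Log2 fold change of each gene, FBN-ARO-KO+GCI over FLOX+GCI, with bars for the 95% interval, grouped by role in shaded and white bands. Filled points are the 8 genes with an unadjusted p under 0.05, and the dashed lines mark a 1.5-fold difference, which only the bar of Ppp3r1 crosses.

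Among the MAGUK scaffolds, the defining member of the postsynaptic density, Dlg4, which encodes PSD-95, had 963 and 976 CPM in FLOX+GCI and 958 and 943 CPM in FBN-ARO-KO+GCI. As counted, the 4 libraries lay within a narrow range, both FBN-ARO-KO+GCI libraries just below. The log2 fold change was -0.03, with a 95% interval from -0.18 to 0.12. With the correction for GC content and transcript length described below, it was 0.16 (edgeR adjusted p = 0.442). Both FBN-ARO-KO+GCI libraries were then above both FLOX+GCI libraries. Dlg2, on chromosome 7 of mm9 from 97650473 to 99595513, encodes PSD-93, and it had 466 and 451 CPM in FLOX+GCI and 501 and 528 CPM in FBN-ARO-KO+GCI. Both FBN-ARO-KO+GCI libraries were above both FLOX+GCI libraries, with a log2 fold change of 0.17 (SE 0.07, edgeR adjusted p = 0.294). Dlg1 (SAP97) and Dlg3 (SAP102) had log2 fold changes of 0.15 and 0.11.

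The DLGAP family, which bridges PSD-95 and SHANK, held the lowest log2 fold change of all 38 genes. Dlgap3, on chromosome 4 from 126846448 to 126914266, had 259 and 271 CPM in FLOX+GCI and 214 and 201 CPM in FBN-ARO-KO+GCI. All FBN-ARO-KO+GCI values were below the FLOX+GCI values, and the log2 fold change was -0.35 (SE 0.07, edgeR adjusted p = 0.238). With 1 library left out in turn it stayed between -0.40 and -0.31. Corrected for GC content and transcript length as described below, it was -0.07, and the groups overlapped. As counted, the other DLGAP genes lay between -0.12 (Dlgap4) and 0.13 (Dlgap1), with Dlgap2 at 0.07. The 3 SHANK genes, which encode the deepest scaffold layer, all had values below 0, with log2 fold changes of -0.16 for Shank1, -0.16 for Shank3 and -0.04 for Shank2, and none had an unadjusted p under 0.05. With the correction for GC content and transcript length described below, all 3 were above 0, at 0.081, 0.069 and 0.034 in that order.

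Among the kinases, Camk2a, which encodes the α subunit of CaMKII and whose promoter drives the Cre, had 4918 and 5088 CPM in FLOX+GCI and 5172 and 5145 CPM in FBN-ARO-KO+GCI. Both FBN-ARO-KO+GCI libraries were slightly above the others, at a log2 fold change of 0.04 with a 95% interval from -0.10 to 0.19. Camk2b, for the β subunit, had 1691 and 1609 CPM in FLOX+GCI and 1604 and 1418 CPM in FBN-ARO-KO+GCI. The higher FBN-ARO-KO+GCI library was just below the lower FLOX+GCI library, and the log2 fold change was -0.13 (SE 0.08, edgeR adjusted p = 0.437). Camk2g, for the γ subunit, on chromosome 14 from 21554097 to 21613310, had 230 and 227 CPM in FLOX+GCI and 196 and 208 CPM in FBN-ARO-KO+GCI. It was lower in both FBN-ARO-KO+GCI libraries, with a log2 fold change of -0.17 (SE 0.07, edgeR adjusted p = 0.283). The groups overlapped for Camk2d, which encodes the δ subunit (log2 fold change -0.17, SE 0.13), and for Camk4, which encodes a nuclear kinase that phosphorylates CREB (0.17, SE 0.11). Per kilobase of annotated exon, the α subunit made up 73.6% and 75.1% of CaMKII RNA in the FLOX+GCI libraries. In those of FBN-ARO-KO+GCI it made up 76.0% and 77.4%. The β subunit made up 20.7% and 19.4% in the former and 19.3% and 17.4% in the latter, so that neither share overlapped between genotypes. These shares are as counted, and groups did not overlap for 51.8% of all genes tested. Their size depends on the lengths used, here 7.465 kb of annotated exon for Camk2a and 9.126 kb for Camk2b. The longest coding transcripts have 4970 and 4023 bases, in that order. With the correction described below, the ratio of Camk2a to Camk2b reads overlapped (3.01 and 3.26 in FLOX+GCI, 3.20 and 3.44 in FBN-ARO-KO+GCI).

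The highest log2 fold change of the 38 was that of a calcineurin gene. Ppp3r1, on chromosome 11 from 17059266 to 17100378, encodes the calcium-binding regulatory subunit of calcineurin. It had 1277 and 1036 CPM in FLOX+GCI and 1397 and 1657 CPM in FBN-ARO-KO+GCI, so that the groups did not overlap but the libraries of each group were far apart. The log2 fold change was 0.40 (SE 0.12, edgeR adjusted p = 0.245). It ranged from 0.25 without FLOX+GCI replicate 2 to 0.56 without FLOX+GCI replicate 1, and of the fits that left out 1 library only the latter gave an adjusted p under 0.05 (0.0256). In the annotation, 14.3% of the exon bases of Ppp3r1 are shared with Wdr92 on the same strand, so reads there could not be assigned with certainty. Ppp3ca, on chromosome 3 from 136333088 to 136600691, encodes the catalytic subunit of calcineurin that is most abundant in brain. It had 1470 and 1335 CPM in FLOX+GCI and 1544 and 1703 CPM in FBN-ARO-KO+GCI, with a log2 fold change of 0.21 (SE 0.08, edgeR adjusted p = 0.274). Prkca, on chromosome 11 from 107794701 to 108205242, encodes protein kinase C α. It had 454 and 419 CPM in FLOX+GCI and 496 and 509 CPM in FBN-ARO-KO+GCI, with a log2 fold change of 0.20 (SE 0.07, edgeR adjusted p = 0.255). Akap5, which encodes the anchor AKAP79/150 that holds calcineurin and protein kinases at the synapse, had a log2 fold change of 0.24 (SE 0.11). In contrast, Nrgn, on chromosome 9 from 37352078 to 37360330, had 1102 and 1044 CPM in FLOX+GCI and 979 and 869 CPM in FBN-ARO-KO+GCI. Both FBN-ARO-KO+GCI libraries were below both FLOX+GCI libraries, with a log2 fold change of -0.22 (SE 0.08, edgeR adjusted p = 0.266).

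Among the adhesion molecules, Nlgn2, the neuroligin of inhibitory synapses, on chromosome 11 from 69636624 to 69651286, had 292 and 287 CPM in FLOX+GCI and 255 and 250.3 CPM in FBN-ARO-KO+GCI. The libraries within each group nearly coincided, and the log2 fold change was -0.20 (SE 0.07, edgeR adjusted p = 0.248). Gphn, for gephyrin, the scaffold of inhibitory synapses that binds NLGN2, had a log2 fold change of 0.11. Nlgn1, the neuroligin of excitatory synapses, was at 0.08 and Nlgn3 at -0.01, both with overlapping groups. The leucine-rich repeat proteins Lrrtm1 and Lrrtm2, which bind neurexins, were at -0.06 and 0.20, and Icam5, the dendritic adhesion molecule telencephalin, was at -0.18. None of these but Nlgn2 had an unadjusted p under 0.05. In Icam5, 30.4% of the annotated exon bases are shared with genes on the opposite strand.

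The log2 fold changes of the auxiliary subunits that traffic AMPA receptors lay between -0.14 (Cnih2, for cornichon 2) and 0.07 (Cacng2, for stargazin), with Cacng3 at -0.08 and Cacng8 at -0.10. The actin and spine proteins lay between -0.07 (Synpo, for synaptopodin) and 0.13 (Lrrc7, for densin-180), with Ppp1r9b, for spinophilin, at -0.03 and Baiap2, for IRSp53, at 0.02. Iqsec2, an exchange factor for ARF GTPases, was at -0.10, and Cnksr2, a RAS pathway scaffold, at 0.18. No gene of these 3 groups had an unadjusted p under 0.05.

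**Figure D3:**
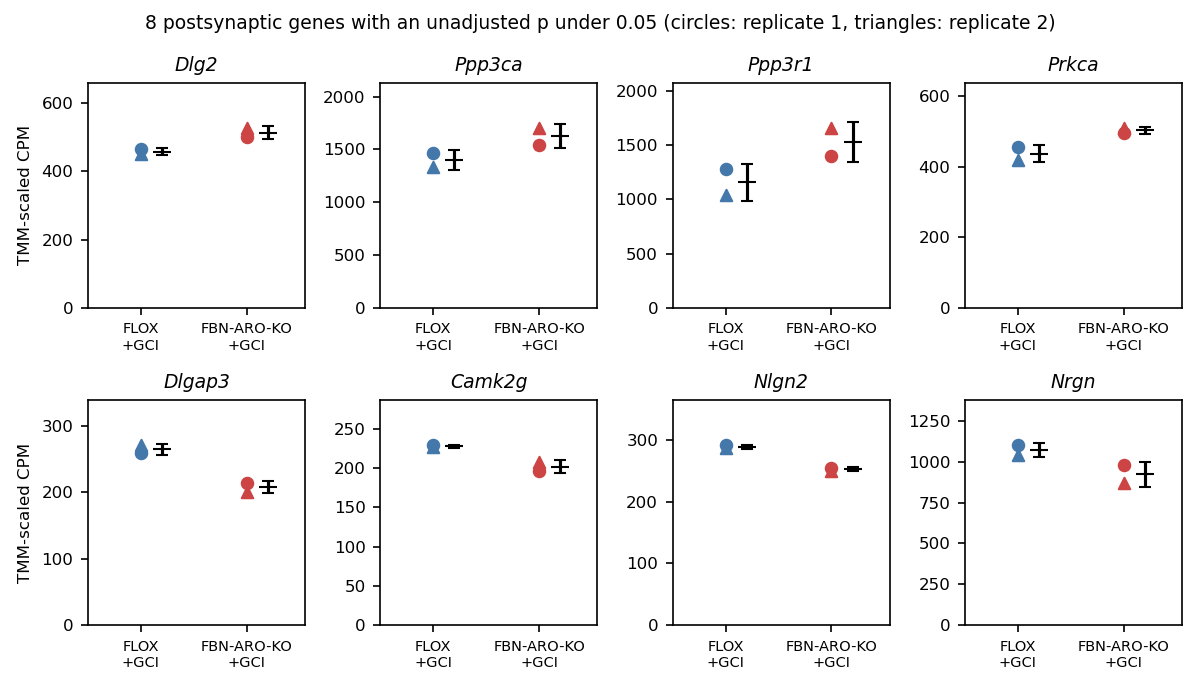
TMM-scaled CPM (axis from 0) of the 8 genes with an unadjusted p under 0.05 in each library (blue, FLOX+GCI; red, FBN-ARO-KO+GCI), with the mean and SD of the 2 libraries beside the points. The top row holds genes with higher values in the knockout and the bottom row genes with lower values. In all 8 the groups do not overlap, as in 51.8% of all genes tested, and the 8 were picked by p-value from these same libraries.

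The genes on the higher and lower sides differed in base composition. The 4 members with higher values had transcripts of 41.4% to 46.4% GC, and the 4 with lower values had transcripts of 51.8% to 63.9% GC, where the median of all genes tested was 50.6%. To show the 8 transcripts beside these values, the middle 90 bases of the longest coding exon are printed 5′ to 3′ on the coding strand, with every G and C in capitals. The sequences are from the GENCODE M1 transcripts of NCBIM37, which is mm9.
Ppp3r1: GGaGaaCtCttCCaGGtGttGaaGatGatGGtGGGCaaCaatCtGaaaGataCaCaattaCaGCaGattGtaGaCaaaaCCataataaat
Ppp3ca: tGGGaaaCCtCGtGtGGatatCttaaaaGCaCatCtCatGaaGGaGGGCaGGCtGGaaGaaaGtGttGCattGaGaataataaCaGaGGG
Prkca: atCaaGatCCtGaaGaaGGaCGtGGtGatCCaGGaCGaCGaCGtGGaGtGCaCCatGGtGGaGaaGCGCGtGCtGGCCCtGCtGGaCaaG
Dlg2: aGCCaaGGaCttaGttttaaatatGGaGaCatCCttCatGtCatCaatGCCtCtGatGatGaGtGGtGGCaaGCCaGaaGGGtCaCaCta
Dlgap3: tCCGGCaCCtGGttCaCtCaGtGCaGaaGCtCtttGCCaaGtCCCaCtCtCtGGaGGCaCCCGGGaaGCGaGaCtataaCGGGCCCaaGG
Nrgn: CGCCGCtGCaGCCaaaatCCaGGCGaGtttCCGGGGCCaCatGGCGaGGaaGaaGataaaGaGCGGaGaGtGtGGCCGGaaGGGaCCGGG
Nlgn2: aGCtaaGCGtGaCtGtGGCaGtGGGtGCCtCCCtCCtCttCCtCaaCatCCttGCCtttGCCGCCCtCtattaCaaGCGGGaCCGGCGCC
Camk2g: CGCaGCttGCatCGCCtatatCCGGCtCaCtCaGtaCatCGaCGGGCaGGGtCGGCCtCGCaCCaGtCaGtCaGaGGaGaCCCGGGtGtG

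Among the genes with higher values, the window of Ppp3r1 lies in exon 5 of 6 (chr11:17094719-17094808, plus strand) and has 37.8% GC, and that of Ppp3ca lies in exon 2 of 13 (chr3:136460745-136460834, plus strand) with 44.4%. The window of Dlg2 lies in exon 15 of 23 (chr7:99524107-99524196, plus strand) and has 44.4%, while that of Prkca, in exon 10 of 17 (chr11:107845241-107845330, minus strand), has 58.9% although its transcript has 46.4%. Among the genes with lower values, the window of Dlgap3 lies in exon 3 of 12 (chr4:126872362-126872451, plus strand) with 60% GC, and that of Nlgn2 in exon 8 of 8 (chr11:69639100-69639189, minus strand) with 61.1%. The window of Nrgn, in exon 2 of 4 (chr9:37353605-37353694, minus strand), covers codons of the calmodulin-binding IQ motif and has 63.3%. That of Camk2g, in exon 20 of 21 (chr14:21556566-21556655, minus strand), has 63.3%, against 51.8% for its transcript. The windows show that composition varies along a transcript, so the values below use whole transcripts.

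Across the 38 genes the log2 fold change followed transcript GC content, with a Spearman's rho of -0.82 (Pearson's r -0.81). The same relation across 14032 genes tested had a rho of -0.55, and genes of the same 4 libraries are not independent replicates. Of the 14 members with GC content below the median of all genes, 12 had a log2 fold change above 0, with a median of 0.17. Of the 24 members above it, 18 had a log2 fold change below 0, with a median of -0.09. For all genes tested these medians were 0.10 and -0.11. There, 4972 of the 7015 genes with lower GC content were above 0, and 5121 of the 7017 with higher GC content were below 0. The libraries of 1 genotype also differed in this way. In FBN-ARO-KO+GCI, the log2 ratio of replicate 2 to replicate 1 had a rho of -0.86 with GC content across the 38 genes, and replicate 2 was above replicate 1 for 14 of the 14 GC-poor members and 7 of the 24 GC-rich members. In FLOX+GCI the rho was 0.20. Across all genes tested with a known GC content, the rho was -0.48 in FBN-ARO-KO+GCI and 0.10 in FLOX+GCI. Among the 38 genes, the largest log2 ratios of replicate 2 to replicate 1 in FBN-ARO-KO+GCI were 0.39 for Camk2d and 0.35 for Lrrtm2. The highest log2 fold change of the 38 between genotypes was 0.40. As the trend with GC content differs between the libraries of the genotypes as well as within FBN-ARO-KO+GCI, its part in a difference between genotypes cannot be told apart from that of the genotype.

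**Figure D4:**
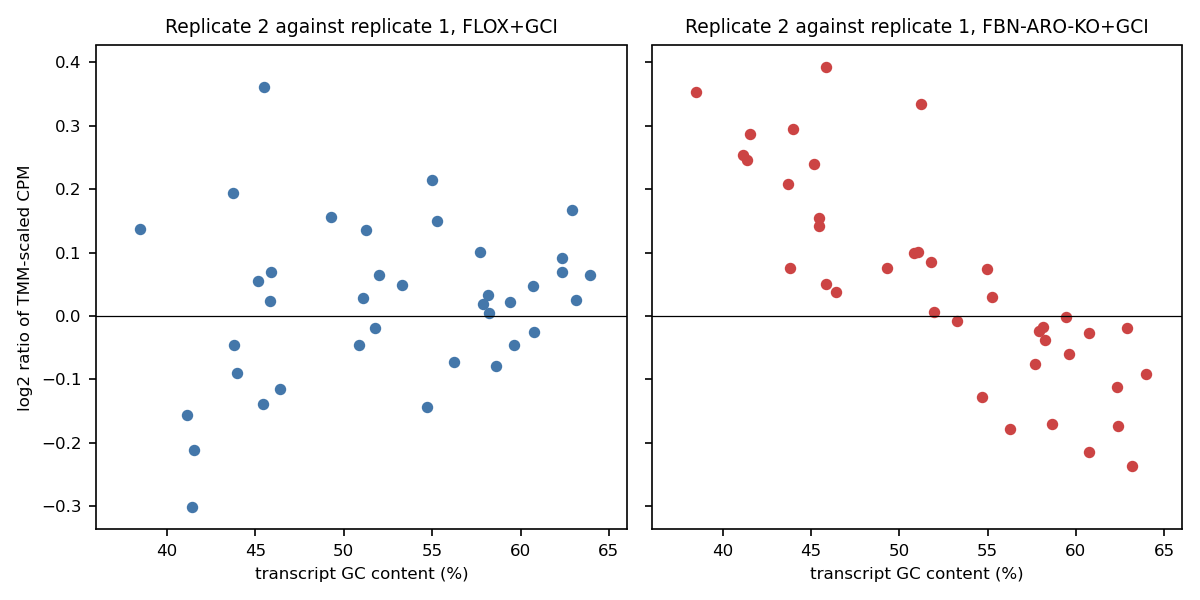
Log2 ratio of TMM-scaled CPM between the 2 libraries of the same genotype against transcript GC content (%), 1 point per gene. In FBN-ARO-KO+GCI (right, red) the points descend with GC content (rho -0.86), and in FLOX+GCI (left, blue) they do not (rho 0.20).

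When the dependence on GC content and transcript length was fitted in each library and removed, the differences of the members took another order. Of the 38 genes, 18 turned sign and 26 had a smaller absolute log2 fold change. The rho with GC content became 0.28 for the members, where that of all genes tested became 0.010. The log2 fold change of Dlgap3 went from -0.35 to -0.07, Nlgn2 from -0.20 to 0.01, Nrgn from -0.22 to 0.04 and Dlg2 from 0.17 to 0.03. Ppp3r1 went from 0.40 to 0.25, Ppp3ca from 0.21 to 0.11, Prkca from 0.20 to 0.11 and Camk2g from -0.17 to -0.14. After the correction 5 members (13.2%) had an unadjusted p under 0.05, against 11.4% of all genes tested, counted in either direction. All 5 had higher values in FBN-ARO-KO+GCI. They were Ppp3r1, Ppp1r9b (0.22), Baiap2 (0.18), Cacng8 (0.18) and Cnih2 (0.16). All but Ppp3r1 had transcripts of 57.7% to 62.3% GC. The annotated transcript of Cacng8 has only 663 bases, so the length and GC content used to correct it may not be those of its full transcript. None had an adjusted p under 0.05, and the smallest was 0.371. The corrected log2 fold change of Dlg4 was 0.16, that of Camk2a 0.09 and that of Camk2b 0.0039, and the lowest was that of Camk2d, at -0.26. In 20 members (52.6%) the groups did not overlap after the correction, which held for 44.3% of all genes tested. As counted, 18 members had a log2 fold change above 0 and 20 below, where 7069 of all genes tested were above and 7458 below. After the correction 30 members were above 0 and 8 below, where 8310 of all genes were above and 6217 below. The median of the members was then 0.07, where that of all genes was 0.03. The ratio of Camk2a to Camk2b reads, as counted, was 2.91 and 3.16 in the FLOX+GCI libraries, below the 3.23 and 3.63 of the FBN-ARO-KO+GCI libraries. With the correction it was 3.01 and 3.26 in the former and 3.20 and 3.44 in the latter, which overlap.

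**Figure D5:**
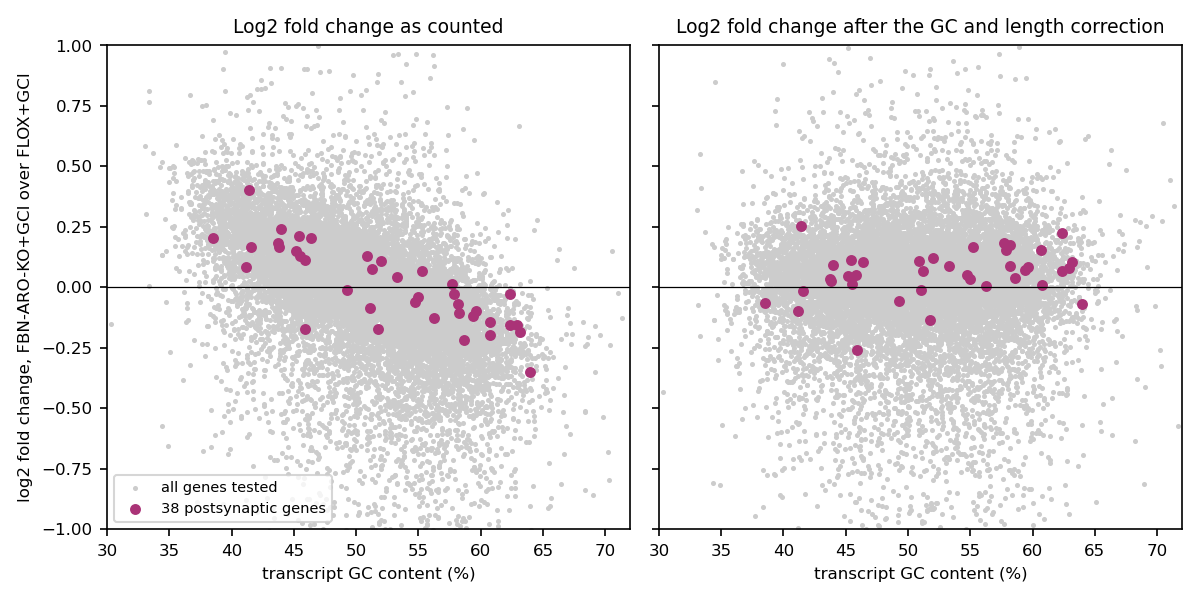
Log2 fold change, FBN-ARO-KO+GCI over FLOX+GCI, against transcript GC content (%) for all genes tested (gray) and the 38 postsynaptic genes (purple), as counted (left) and after the GC and length correction (right). The axis is cut at -1 and 1, so genes with larger differences are not shown. As counted, the 38 genes descend with GC content (rho -0.82), and after the correction they do not (rho 0.28).

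The same comparison was made for further genes of this machinery. Of 25 genes of calcium and calmodulin signaling, all were tested, 0 had an adjusted p under 0.05, and 7 had an unadjusted p under 0.05, 5 higher (8.72% of all genes) and 2 lower (7.82% of all genes), with a median log2 fold change of 0.02. Ppp3cb, for a further catalytic subunit of calcineurin, had 418 and 366 CPM in FLOX+GCI and 453 and 551 CPM in FBN-ARO-KO+GCI, which is 0.36 on the log2 scale (0.16 once corrected). Rcan2, a calcineurin regulator, had a log2 fold change of 0.21 (0.17 once corrected), and Prkcb, for protein kinase C β, one of 0.20 (0.23 after the correction). Ppp1r1a, for an inhibitor of protein phosphatase 1, had 88.6 and 106 CPM in FLOX+GCI and 74.1 and 72.4 CPM in FBN-ARO-KO+GCI, which is -0.41 on the log2 scale (-0.24 once corrected). Camk2n2, which encodes an inhibitor of CaMKII, was at -0.34 and at 0.02 after the correction. Of these 25 genes, 10 had an unadjusted p under 0.05 after the correction, against 11.4% of all genes tested. The median of the 25 was then 0.14, with 22 above 0 and 3 below. That of all genes was 0.03, with 8310 above 0 and 6217 below. Of those 10, Ppp1r1a was lower and the others were higher.

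Of 28 further scaffolds and adaptors, 26 were tested, 0 had an adjusted p under 0.05, and 2 were higher and 2 lower at an unadjusted p under 0.05 (16.5% of all genes), with a median of 0.05. Those higher were Anks1b (0.23), for a partner of PSD-95, and the SPAR family gene Sipa1l2 (0.26, and 0.32 after the correction). Those lower were Bai1 (-0.30), for an adhesion receptor, and Begain (-0.28), for a partner of PSD-95, which were at -0.04 and 0.03 after the correction. After the correction 5 had an unadjusted p under 0.05, against 11.4% of all genes. These were Sipa1l2, Anks1b, Agap2, Ptk2b and Add2, all higher. Of 23 further adhesion and receptor partner genes, all were tested, 0 had an adjusted p under 0.05, and 2 were higher and 3 lower at an unadjusted p under 0.05 (16.5% of all genes), with a median of -0.0040. After the correction 4 had one (Neto1, Neto2, Shisa7 and Shisa9, all higher), against the same 11.4%. The kainate and NMDA receptor partners Neto2 and Neto1 were at 0.51 and 0.21 (0.21 and 0.18 after the correction). The adhesion genes Lrfn4, Lrfn1 and Lrrc4b were at -0.47, -0.42 and -0.36 (-0.14, -0.10 and -0.06 after the correction).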

How the data were processed

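RNA was measured in hippocampus by single-end sequencing (50 nt) in 4 libraries, 2 in each genotype. Per the labels, the authors aligned reads to mm9 with TopHat2 2.0.8b, counted them by gene symbol with HTSeq and deposited the counts without normalization (bcl2fastq is also named in the submitters' processing notes). The HTSeq version, strand setting and annotation release are not given in the sources used here. The 5 HTSeq counters were left out. Non-unique alignments, not counted on genes, amounted to between 62.0% and 67.0% of the counts on genes, reads in no feature to between 14.1% and 16.0%, and ambiguous reads to between 0.475% and 0.519%. A count of 3, taken as the smallest that can be shown, was 0.0907 to 0.123 CPM, which covers counting error only. Counts of same-group libraries differed by more than sampling noise (chi-square over its degrees of freedom 9.33 in FLOX+GCI, 11.0 in FBN-ARO-KO+GCI), so none was a copy of another. Whether they came from the same RNA or the same mouse cannot be told from this value.

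From the counts, genotypes were compared over all genes in R 4.3.3 by the quasi-likelihood test of edgeR 4.0.16. Libraries were scaled by TMM, genes were kept by filterByExpr at a minimum count of 10, and p-values were adjusted by Benjamini-Hochberg with a threshold of 0.05. The study used DESeq, and DESeq2 1.42.0 was an alternative. Standard errors (SE) were taken from the F statistic (the size of the log2 fold change over the root of F), and 95% intervals used the test's degrees of freedom. An exact two-sided permutation test of 2 against 2 libraries cannot reach below 0.333, so none was used. GC content and length are of the longest protein-coding transcript in GENCODE M1 (NCBIM37), which 20335 of 22609 symbols matched. The GC and length correction was a natural spline (5 degrees of freedom) per library, fitted to log2 CPM (prior count 2) minus the mean of the gene, and was passed to edgeR as an offset. Each test was tried on simulated counts, with and without a trend over GC content added to FBN-ARO-KO+GCI. With the trend, every test without the GC and length correction called many unchanged genes, and those with it called few. The added trend was equal in both FBN-ARO-KO+GCI libraries and of the kind that the correction removes. The outcome therefore does not tell whether differences in the data that follow GC content are technical.

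The members, lists and tests were chosen with earlier results of these data known. Named genes are every member, with values per library for those with an unadjusted p under 0.05, Camk2a, Dlg4 and Camk2b, and from each further list the genes of smallest p, at most 3 per direction. At most 0.806% of the 50-base stretches of a member's transcript occur in a transcript of another gene. For older symbols, the RefSeq gene table (GRCm38.p6) was used for names only.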

Additional observations from a re-analysis of the deposited data

How the results depend on the processing

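No member had an adjusted p under 0.05 in the main test, with other size factors, library totals, either filter on low counts, the GC and length correction, or the replicate block with or without it. DESeq2 called 2 members (Dlgap3, adjusted p = 0.00788, and Ppp3r1, 0.0164) and edgeR's likelihood ratio test 1 (Dlgap3, 0.0122). With 1 library left out in turn, 0 to 1 member was called, where the lone library of a group is assumed to vary like the others. Over all genes, 2 had an adjusted p under 0.05 in the main test, 285 with DESeq2, 294 with the likelihood ratio test, 5 with every gene of at least 1 count, and 0 to 193 with 1 library left out. The cause of these changes was not tested. Of the members with an unadjusted p under 0.05, library totals alone gave 2 higher and the GC and length correction 0 lower, and leaving out 1 library gave 0 to 7 higher and 2 to 7 lower. The median log2 fold change of the members was -0.053 with library totals and 0.069 with the correction, and -0.037 to 0.034 with 1 library left out.

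The groups share replicate numbers, which the labels do not explain. Same-numbered libraries deviated together at a correlation of 0.129 across genes, with 2 pairs. Blocking on the number, 184 genes and 0 members had an adjusted p under 0.05. With the block and the correction, 1 gene had, and the median of the members was 0.065. In that fit 4 members were higher (7.4% of all genes) and 1 lower (4.47% of all genes) at an unadjusted p under 0.05.

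The correction turned the sign of 18 members. The log2 fold changes with it, and in parentheses with the block and the correction, were 0.18 (0.18) for Cacng8, 0.0039 (0.0040) for Camk2b, -0.017 (-0.013) for Camk4, 0.16 (0.16) for Cnih2, 0.16 (0.15) for Dlg4, 0.070 (0.069) for Dlgap4, 0.11 (0.11) for Icam5, 0.083 (0.082) for Iqsec2, 0.051 (0.053) for Lrrtm1, -0.066 (-0.063) for Lrrtm2, -0.10 (-0.10) for Nlgn1, 0.011 (0.010) for Nlgn2, 0.038 (0.038) for Nrgn, 0.22 (0.23) for Ppp1r9b, 0.081 (0.084) for Shank1, 0.034 (0.036) for Shank2, 0.069 (0.071) for Shank3 and 0.087 (0.086) for Synpo. With library totals, Baiap2 was at -0.020. With 1 library left out, the values crossed 0 for Baiap2 (-0.033 to 0.064), Cacng2 (-0.10 to 0.23), Camk2d (-0.38 to 0.0072), Dlgap2 (-0.0055 to 0.14), Lrrc7 (-0.037 to 0.32), Lrrtm1 (-0.13 to 0.015), Nlgn1 (-0.047 to 0.20), Nlgn3 (-0.084 to 0.067), Ppp1r9b (-0.086 to 0.030) and Shank2 (-0.14 to 0.069).

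Every member had at least 963 reads in each library.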

Other observations

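Ratios of 2 members within a library do not depend on the scaling between libraries. The ratio of Ppp3r1 to Dlgap3 reads, the genes with the highest and lowest log2 fold change, was 4.93 and 3.83 in the control libraries and 6.52 and 8.25 in the knockout libraries. Corrected for composition and length, it was 5.81 and 4.39, against 6.27 and 6.35. The ratio of Ppp3r1 to Nrgn reads, a calcineurin subunit and a calmodulin-binding protein, was 1.16 and 0.992 in the control libraries and 1.43 and 1.91 in the knockout libraries, and after the correction 1.30 and 1.17, against 1.38 and 1.49. The genes of these ratios were picked after their values were seen. The ratio between the 2 calcineurin members, Ppp3r1 to Ppp3ca, was 0.869 and 0.776 in the control libraries and 0.905 and 0.973 in the knockout libraries.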
